A study of Bos taurus with 24 samples.

Results

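The genes described here are 44 genes of DNA replication and cell division, measured by RNA sequencing in bovine cells grown from subcutaneous fat. They were taken by gene name from the day 4 table and joined by gene identifier to the day 7 table. All 44 were found among the 27570 genes that each table lists. By role, 10 act in the licensing and firing of replication origins, 9 in DNA synthesis and nucleotide supply, 3 are transcription factors, 7 are cyclins or cyclin-dependent kinases, 8 are mitotic kinases or act in the spindle checkpoint and exit from mitosis, and 7 act in the spindle or in chromosome structure. The study took pre-adipocytes from fat explants of Holstein cows, induced them to become adipocytes and asked how palmitic and oleic acid change them. MIX cultures received palmitic and oleic acid at 60 to 40 and 300 µM, OA cultures oleic acid at 300 µM, PA cultures palmitic acid at 300 µM, and CON cultures the basal differentiation medium without an added fatty acid. All 4 groups shared that medium, which held serum, insulin, troglitazone (an activator of PPARG) and acetate, and isobutylmethylxanthine and dexamethasone at the start of induction only. At day 4 the fatty acids were present during induction and up to day 4, in cells of cows 4, 5 and 6. At day 7 they were given for 7 days from after induction, in cells of cows 1, 2 and 3. Each cow gave 1 library per group, so each group had 3 libraries at each day and the study 24 libraries.

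A dividing cell copies its genome once and then separates the copies. In G1 phase, CDC6 and CDT1 load the MCM helicase onto origins, and in S phase the GINS complex helps to start the helicase while polymerases, their clamp PCNA and the enzymes that make deoxynucleotides extend new DNA. E2F1 drives many S phase genes, and MYBL2 and FOXM1 drive the later G2 and M phase genes, among them cyclin B, polo-like and aurora kinases and spindle proteins. Fat cell precursors stop dividing when they differentiate. In some cultured mouse lines, but not in all precursor cells, confluent cells divide again after the hormone cocktail before they become fat cells.

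Libraries held 13509548 to 17071654 assigned reads at day 4 and 14118798 to 24008811 at day 7. The 3 CON libraries of day 7 held at least 19358115 reads each, and the lowest of the other groups held 14827192 in MIX, 14398902 in OA and 14118798 in PA. A gene without a read in a library could have lain at up to 0.222 CPM (counts scaled to library depth) at day 4 and 0.213 at day 7, by counting error only. The cells were labelled adipocytes. All 10 markers of pre-adipocytes and fibroblasts averaged 1 FPKM or more at both days. Of 8 adipocyte markers, 4 did so at day 4 and 2 at day 7. FABP4 averaged 30.3 FPKM at day 4 and 0.405 at day 7, and PPARG 3.07 and 0.230. PLIN1 averaged 1.85 FPKM at day 4 and 1.05 at day 7, and CIDEA 1.71 and 2.14. ADIPOQ, the hormone of mature fat cells, had 3 reads over the 12 day 4 libraries and 0 over the 12 day 7 libraries. Of 7 macrophage and leukocyte markers, 2 averaged 1 FPKM or more at each day, and PTPRC, the marker of all leukocytes, had 1 read at day 4 and 2 at day 7. None of 6 endothelial markers reached 1 FPKM on average.

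None of the 44 genes passed the threshold, an adjusted p below 0.05, in the 12 comparisons made between groups, 6 at each day. All 44 could be tested at day 4 and 42 at day 7, where CDC6 and PRIM1 were below 1 FPKM in too many libraries. The tests ran across all genes, with edgeR on counts at day 4 and limma on log2(FPKM + 1) at day 7. FPKM is a read number scaled to the length of the transcript and the depth of the library. Without cow in the fit, 0% of all genes passed in any of these 12, while 0 members reached an unadjusted p below 0.05. Few genes did so in that fit at day 4, 15 to 24 of 13580 in a comparison, so the 0 there is near the background. How many of all genes did so at day 7 is not given here, so the 0 at day 7 is no result about the members. With cow as a block, which compares cultures of the same animal, 10 of 13580 genes (0.0736%) passed in OA against CON at day 4 and 30 (0.221%) in OA against PA at day 4. None passed in the other 10 comparisons. No member was among the genes that passed. Every log2 difference with a standard error below comes from the fit with the block, over 3 cows, with adjusted p-values from edgeR at day 4 and from limma at day 7. The lowest adjusted p of any member was 0.0771, for RRM2 in OA against PA at day 4. DESeq2 on the day 4 counts, with cow in the design, gave a lowest adjusted p of 0.807 among the members for which it gave one. For RRM2 in OA against PA it gave a log2 difference of 0.80 and no adjusted p. With the block, edgeR on reads recovered from the day 7 FPKM gave a lowest adjusted p of 0.185.

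What the members did share was a small difference in direction. In OA cultures, 37 of 44 members lay above CON at day 4 and 37 of 42 at day 7. Over all genes tested, 50.1% lay above CON at day 4. The members' median log2 difference was 0.17 at day 4 and 0.12 at day 7, against medians of 0.00 and 0.01 over all genes tested. These counts and medians come from the fit without the block, and with it 35 of 44 and 37 of 42 lay above 0. At day 7 the median was 0.04 when the OA library of cow 2 was left out and 0.20 when that of cow 3 was. Over all members, MIX cultures, which hold oleic acid next to more palmitic acid, did not share this position. Their medians against CON were 0.04 at day 4 and -0.02 at day 7. The roles differed in MIX against CON at day 4. There 7 of 8 mitotic kinase and checkpoint genes, 7 of 9 DNA synthesis genes and 6 of 10 licensing genes lay above 0. So did 3 of 7 cyclins and their kinases, 2 of 7 spindle genes and 0 of 3 transcription factors. In MIX against OA, 10 of 44 members lay above 0 at day 4 and 5 of 42 at day 7, with medians of -0.13 at both days. OA against CON, OA against PA and MIX against OA share the OA libraries, so these are not separate observations. Members also varied together over the libraries of a day, so counts of members are not counts of separate observations either. In bulk RNA, fewer dividing cells and less of these RNAs per cell cannot be told apart.

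**Figure D1:**
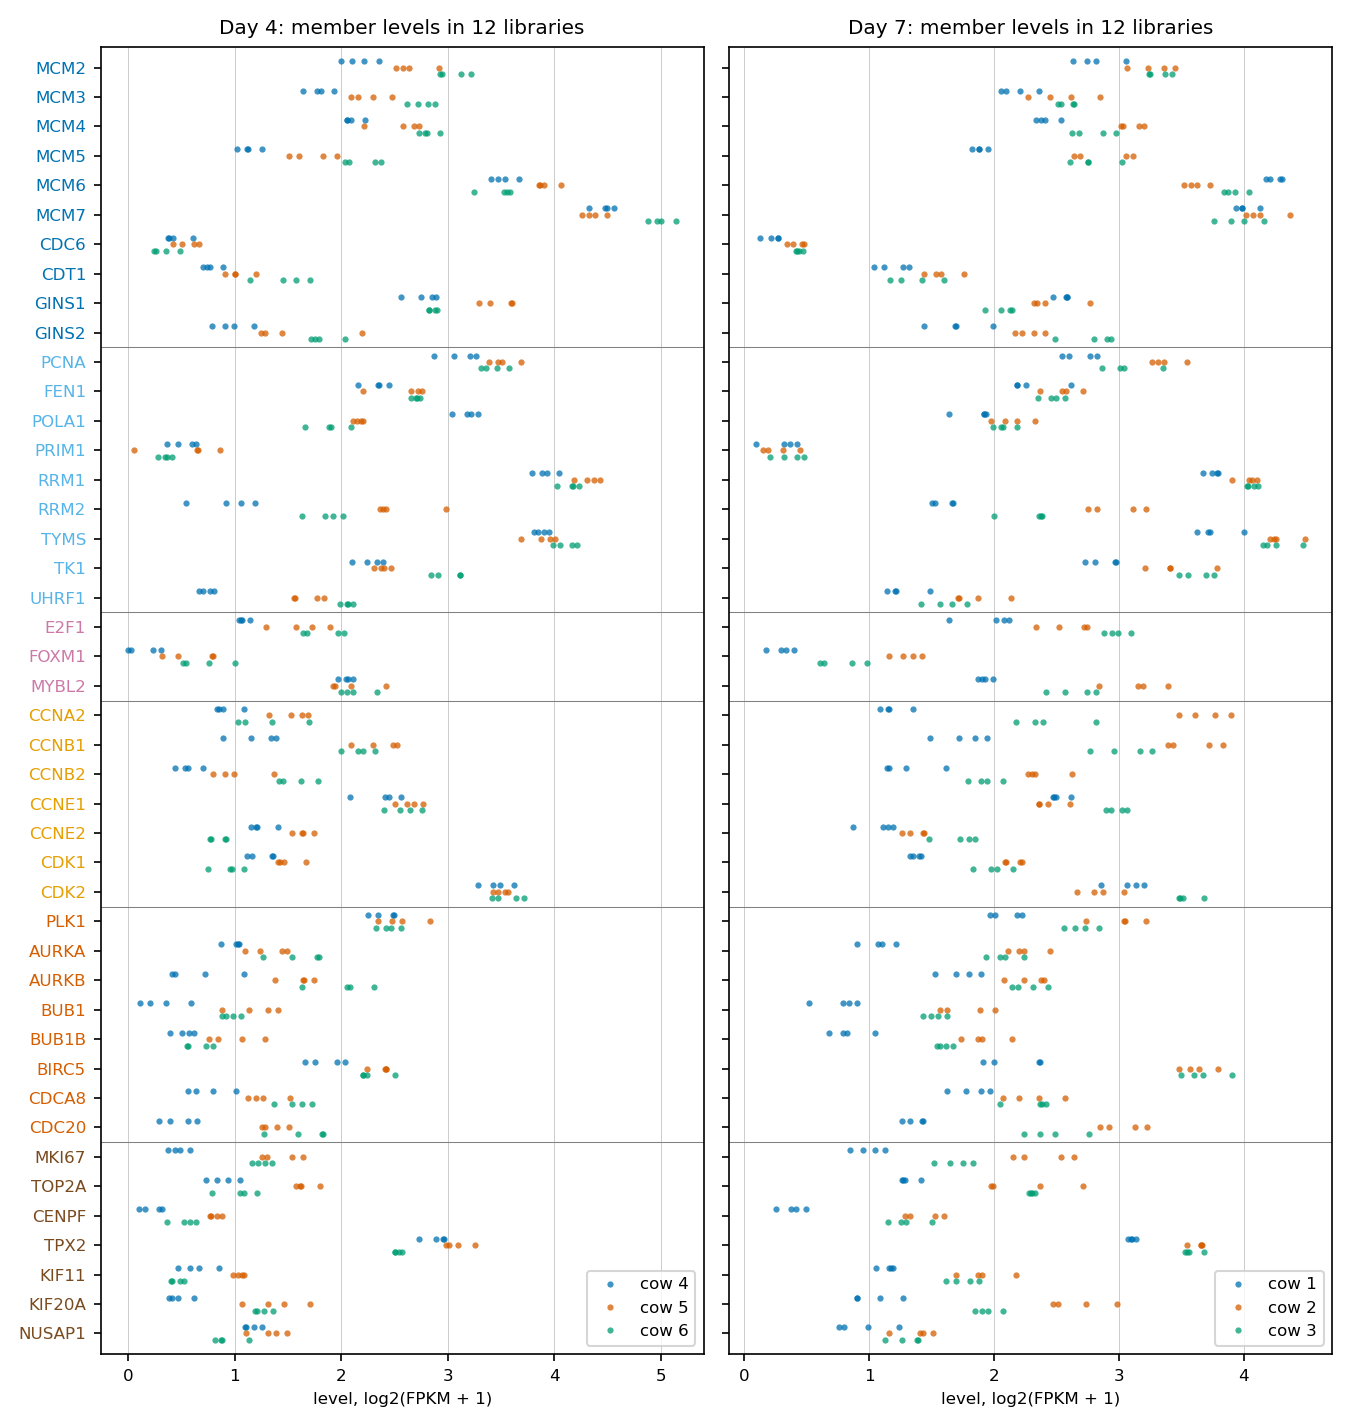
Level of each of the 44 genes as log2(FPKM + 1) in the 12 libraries of day 4 (left) and of day 7 (right), 1 point per library, coloured by cow. Genes run down the axis in 6 role groups parted by grey lines, and the points of a gene fall into cow groups, with cow 1 lowest for 38 of 44 genes at day 7 by the mean over its 4 cultures.

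Levels differed widely between members. MCM7, a helicase subunit, was the highest at day 4, with 18.2 to 34.4 FPKM over 12 libraries and a median of 21.6. Its day 7 range was 12.6 to 19.7 FPKM. MCM6, RRM1, TYMS and CDK2 also stood at 10 FPKM or more on average at day 4. At the other end, FOXM1 ranged over 0 to 1.00 FPKM at day 4, which is 0 to 49 reads, and PRIM1 had as little as 1 read. At day 4, 37 of 44 members averaged 1 FPKM or more, and at day 7, 41 did. The median over members of the mean level was 1.98 FPKM at day 4 and 4.25 FPKM at day 7. The days differ in cows, in treatment schedule and in the table's normalisation, so this is no test of time. In each paragraph below, 3 values in a row belong to cows 4, 5 and 6 at day 4 and to cows 1, 2 and 3 at day 7.

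Among the genes of origin licensing and firing, MCM2, a subunit of the helicase, was highest with OA in every cow of both days. At day 4, MCM2 (chromosome 22, 59896021 to 59912780, on the minus strand in the coordinates of the deposited table, whose genome build is not given in the sources used here) had 3.64, 5.22 and 7.71 FPKM in MIX cultures, 4.12, 6.58 and 8.29 in OA cultures, 3.30, 4.99 and 6.63 in PA cultures and 2.99, 4.70 and 6.71 in CON cultures. The OA culture was the highest of the 4 in every cow, while the ranges of the groups overlapped, with cow 4 lowest in each. The log2 difference was 0.40 ± 0.10 (adjusted p = 0.265) for OA against CON and 0.35 ± 0.10 (adjusted p = 0.248) for OA against PA. At day 7, MCM2 had 5.72, 8.42 and 8.46 FPKM in MIX cultures, 7.31, 9.92 and 9.72 in OA cultures, 5.22, 7.38 and 9.33 in PA cultures and 6.05, 9.29 and 8.49 in CON cultures. OA was again the highest within each cow, with a difference of 0.17 ± 0.08 (adjusted p = 0.58) from CON and 0.28 ± 0.08 (adjusted p = 0.321) from PA.

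MCM5, another subunit of the same helicase, had 1.39, 2.05 and 4.196 FPKM in MIX cultures, 1.18, 2.89 and 3.97 in OA cultures, 1.04, 1.85 and 3.10 in PA cultures and 1.17, 2.57 and 3.21 in CON cultures at day 4. Its PA culture was the lowest in every cow, and OA against PA gave 0.41 ± 0.18 (adjusted p = 0.664). CDT1, which loads the helicase, had 0.666, 1.00 and 1.98 FPKM in MIX cultures, 0.851, 1.29 and 2.26 in OA cultures, 0.700, 0.874 and 1.22 in PA cultures and 0.631, 1.00 and 1.74 in CON cultures at day 4. Here too OA was the highest in every cow, at 0.61 ± 0.27 (adjusted p = 0.662) against PA. CDC6, the partner of CDT1 in loading, had 0.305, 0.420 and 0.283 FPKM in MIX cultures, 0.298, 0.584 and 0.200 in OA cultures, 0.523, 0.540 and 0.406 in PA cultures and 0.339, 0.342 and 0.186 in CON cultures at day 4. All 3 PA values lay above all 3 CON values, with a difference of 0.76 ± 0.37 (adjusted p = 0.9998), on 9 to 29 reads a library. Such a separation was found for 77 of 13580 genes (0.567%) in PA against CON, and for no other member. CDC6 overlaps the gene WIPF2 on the same strand in the deposited coordinates, and its reads may be split between them. At day 7, CDC6 had 0.204, 0.383 and 0.360 FPKM in MIX cultures, 0.162, 0.393 and 0.343 in OA cultures, 0.0935, 0.313 and 0.389 in PA cultures and 0.207, 0.268 and 0.336 in CON cultures and was not tested.

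MCM6 had 18.8, 10.9 and 15.5 FPKM in MIX cultures, 18.6, 12.2 and 13.3 in OA cultures, 17.5, 11.4 and 14.2 in PA cultures and 17.1, 10.5 and 13.6 in CON cultures at day 7, with CON lowest in cows 1 and 2 and OA lowest in cow 3. PA and MIX were both above CON in every cow, at 0.07 ± 0.06 (adjusted p = 0.998) and 0.12 ± 0.06 (adjusted p = 0.99999). GINS2, a subunit of the GINS complex, had 1.71, 3.51 and 5.95 FPKM in MIX cultures, 2.98, 4.30 and 6.67 in OA cultures, 2.24, 3.67 and 6.50 in PA cultures and 2.22, 3.99 and 4.60 in CON cultures at day 7. In each cow the OA culture was the highest, at 0.28 ± 0.11 (adjusted p = 0.513) against CON. MCM3 and MCM4 belong to the same helicase. MCM3 ranged over 2.13 to 6.37 FPKM at day 4 and MCM4 over 3.15 to 6.61 FPKM, and OA against CON gave 0.16 ± 0.14 (adjusted p = 0.992) and 0.02 ± 0.12 (adjusted p = 0.998). At day 7, MCM3 lay above CON with OA in every cow, at 0.17 ± 0.10 (adjusted p = 0.635), and so did MCM4, at 0.10 ± 0.10 (adjusted p = 0.804). MCM7 was at -0.01 ± 0.09 (adjusted p = 0.999) at day 4 and 0.13 ± 0.11 (adjusted p = 0.748) at day 7. Its position overlaps AP4M1 on the opposite strand and 3 miRNA genes on its own strand. GINS1, the partner of GINS2, ranged over 4.89 to 11.1 FPKM at day 4 and 2.80 to 5.83 FPKM at day 7, with OA against CON at 0.10 ± 0.11 (adjusted p = 0.993) and 0.19 ± 0.10 (adjusted p = 0.592). Over the 10 genes of this role, 9 of 10 tested lay above 0 in OA against CON at day 4 and 9 of 9 at day 7, with medians of 0.14 and 0.13. In OA against PA, 8 of 10 lay above 0 at day 4 and 8 of 9 at day 7, with medians of 0.22 and 0.03.

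The largest difference among the genes of DNA synthesis in OA against CON and OA against PA at day 4 was that of RRM2, the small subunit of ribonucleotide reductase, which makes deoxynucleotides. RRM2 (chromosome 11, 87488674 to 87495961, minus strand, in the same coordinates) had 1.08, 4.17 and 2.80 FPKM in MIX cultures, 1.29, 6.90 and 3.05 in OA cultures, 0.462, 4.24 and 2.11 in PA cultures and 0.888, 4.36 and 2.61 in CON cultures at day 4. In every cow OA was the highest, and in cows 4 and 6 PA was the lowest, but cow 5 was several times higher than cow 4 in all groups. The difference of OA from PA was 0.78 ± 0.18 (adjusted p = 0.0771), the nearest to the threshold of any member. It passed when every gene with a read was tested (adjusted p = 0.00152), with cow 6 left out (0.0115), and with only its OA library (0.0440) or only its MIX library (0.0469) left out. Over all other libraries and cows left out in turn, with the block, its adjusted p was between 0.0696 and 0.858, and limma on log2(FPKM + 1) gave 0.305. Without the block it was 0.999978. DESeq2 with cow in the design gave a log2 difference of 0.80 and no adjusted p for RRM2. From CON, OA differed by 0.48 ± 0.18 (adjusted p = 0.761) and PA by -0.30 ± 0.19 (adjusted p = 0.9998). At day 7, RRM2 had 1.88, 6.07 and 4.19 FPKM in MIX cultures, 2.17, 8.32 and 4.15 in OA cultures, 2.19, 5.74 and 4.22 in PA cultures and 1.83, 7.65 and 3.01 in CON cultures. Only cow 2 had its highest value with OA, and OA against PA gave 0.15 ± 0.13 (adjusted p = 0.711).

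TYMS, which makes thymidylate, gave the smallest unadjusted p of any member in OA against CON at day 7. TYMS (chromosome 24, 35553464 to 35564144, plus strand) had 12.3, 17.5 and 18.2 FPKM in MIX cultures, 15.0, 21.4 and 21.2 in OA cultures, 12.1, 17.9 and 16.8 in PA cultures and 11.3, 18.1 and 17.2 in CON cultures at day 7. OA was the highest culture throughout, by 0.38, 0.23 and 0.29 on the log2(FPKM + 1) scale over CON. The differences were 0.30 ± 0.05 (adjusted p = 0.424) from CON and 0.28 ± 0.05 (adjusted p = 0.269) from PA. At day 4, TYMS had 14.4, 14.6 and 17.5 FPKM in MIX cultures, 13.4, 13.7 and 14.9 in OA cultures, 13.0, 11.9 and 17.0 in PA cultures and 14.003, 15.1 and 15.6 in CON cultures. No cow had its highest value with OA there, and OA against CON gave -0.10 ± 0.10 (adjusted p = 0.992).

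TK1, the thymidine kinase that salvages thymidine, had 4.05, 4.18 and 7.66 FPKM in MIX cultures, 3.72, 4.27 and 7.65 in OA cultures, 4.25, 4.52 and 6.53 in PA cultures and 3.29, 3.97 and 6.16 in CON cultures at day 4. CON was the lowest in every cow, and MIX differed from it by 0.23 ± 0.14 (adjusted p = 0.994). At day 7, TK1 had 5.65, 9.64 and 10.1 FPKM in MIX cultures, 6.85, 12.8 and 11.97 in OA cultures, 6.86, 9.62 and 12.6 in PA cultures and 6.003, 8.27 and 10.7 in CON cultures. OA and PA were both above CON in every cow, at 0.29 ± 0.09 (adjusted p = 0.434) and 0.19 ± 0.09 (adjusted p = 0.998). PCNA, the clamp that holds polymerases on DNA, had 7.32, 9.49 and 10.9 FPKM in MIX cultures, 8.22, 11.9 and 10.0 in OA cultures, 8.59, 10.4 and 9.29 in PA cultures and 6.31, 10.1 and 8.92 in CON cultures at day 4. At day 7, PCNA had 6.07, 8.61 and 7.05 FPKM in MIX cultures, 4.84, 9.25 and 7.22 in OA cultures, 5.83, 8.95 and 9.24 in PA cultures and 5.06, 10.7 and 6.31 in CON cultures. No group was the highest in more than 1 cow of a day, and OA against CON gave 0.25 ± 0.12 (adjusted p = 0.953) at day 4 and -0.02 ± 0.12 (adjusted p = 0.971) at day 7.

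UHRF1, which carries DNA methylation over to new strands, had 1.801, 2.66 and 2.44 FPKM in MIX cultures, 1.32, 3.39 and 1.97 in OA cultures, 1.21, 2.27 and 2.16 in PA cultures and 1.31, 2.30 and 1.66 in CON cultures at day 7. MIX was above CON in every cow, at 0.26 ± 0.12 (adjusted p = 0.99999). POLA1, the catalytic subunit of the polymerase that starts new strands, had 2.78, 2.93 and 2.97 FPKM in MIX cultures, 2.13, 4.03 and 3.55 in OA cultures, 2.83, 3.26 and 3.16 in PA cultures and 2.79, 3.55 and 3.21 in CON cultures at day 7. It was below CON with MIX in every cow, by at most 0.21, with a difference of -0.10 ± 0.11 (adjusted p = 0.99999). FEN1, which trims the flaps of lagging strands, ranged over 3.47 to 5.78 FPKM at day 4 and 3.55 to 5.56 FPKM at day 7. It lay above CON with OA in every cow of both days, at 0.17 ± 0.16 (adjusted p = 0.992) and 0.24 ± 0.09 (adjusted p = 0.513). RRM1, the large subunit of ribonucleotide reductase, kept a higher and narrower level than RRM2, at 12.8 to 20.6 FPKM at day 4 and 11.8 to 16.3 FPKM at day 7, with OA against CON at 0.05 ± 0.09 (adjusted p = 0.995) and 0.05 ± 0.05 (adjusted p = 0.765). PRIM1, the primase that lays down RNA primers, had 1 to 18 reads at day 4 and 3 to 13 at day 7 and overlaps NACA on the same strand. Over this role, 7 of 9 genes lay above 0 in OA against CON at day 4 and 6 of 8 at day 7, with medians of 0.07 and 0.20.

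The 3 transcription factors had a median of 1.93 FPKM at day 4 and 4.95 FPKM at day 7. E2F1 had 1.06, 1.45 and 2.91 FPKM in MIX cultures, 1.09, 2.73 and 3.08 in OA cultures, 1.21, 1.98 and 2.12 in PA cultures and 1.08, 2.30 and 2.19 in CON cultures at day 4. Cows 5 and 6 were highest with OA, and OA against CON gave 0.27 ± 0.22 (adjusted p = 0.992). At day 7, E2F1 had 2.11, 4.75 and 6.71 FPKM in MIX cultures, 3.22, 5.58 and 6.37 in OA cultures, 3.35, 4.05 and 6.97 in PA cultures and 3.05, 5.71 and 7.57 in CON cultures, and MIX lay below CON in every cow, at -0.25 ± 0.12 (adjusted p = 0.99999). FOXM1 had 0.177, 0.742 and 0.428 FPKM in MIX cultures, 0.242, 0.726 and 0.690 in OA cultures, 0, 0.246 and 0.462 in PA cultures and 0.0167, 0.380 and 1.00 in CON cultures at day 4, where the PA culture of cow 4 had no read. At day 7 it had 0.128, 1.68 and 0.824 FPKM in MIX cultures, 0.260, 1.55 and 0.983 in OA cultures, 0.231, 1.41 and 0.561 in PA cultures and 0.318, 1.24 and 0.521 in CON cultures. Cow 1 was lowest in all 4 groups and OA against CON gave 0.17 ± 0.13 (adjusted p = 0.718). MYBL2 ranged over 2.79 to 4.35 FPKM at day 4 and 2.67 to 9.49 FPKM at day 7, with OA against CON at 0.22 ± 0.16 (adjusted p = 0.992) and 0.00 ± 0.14 (adjusted p = 0.995). It differed by 1.08-fold between the highest and lowest cow mean at day 4 and by 2.83-fold at day 7.

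**Figure D2:**
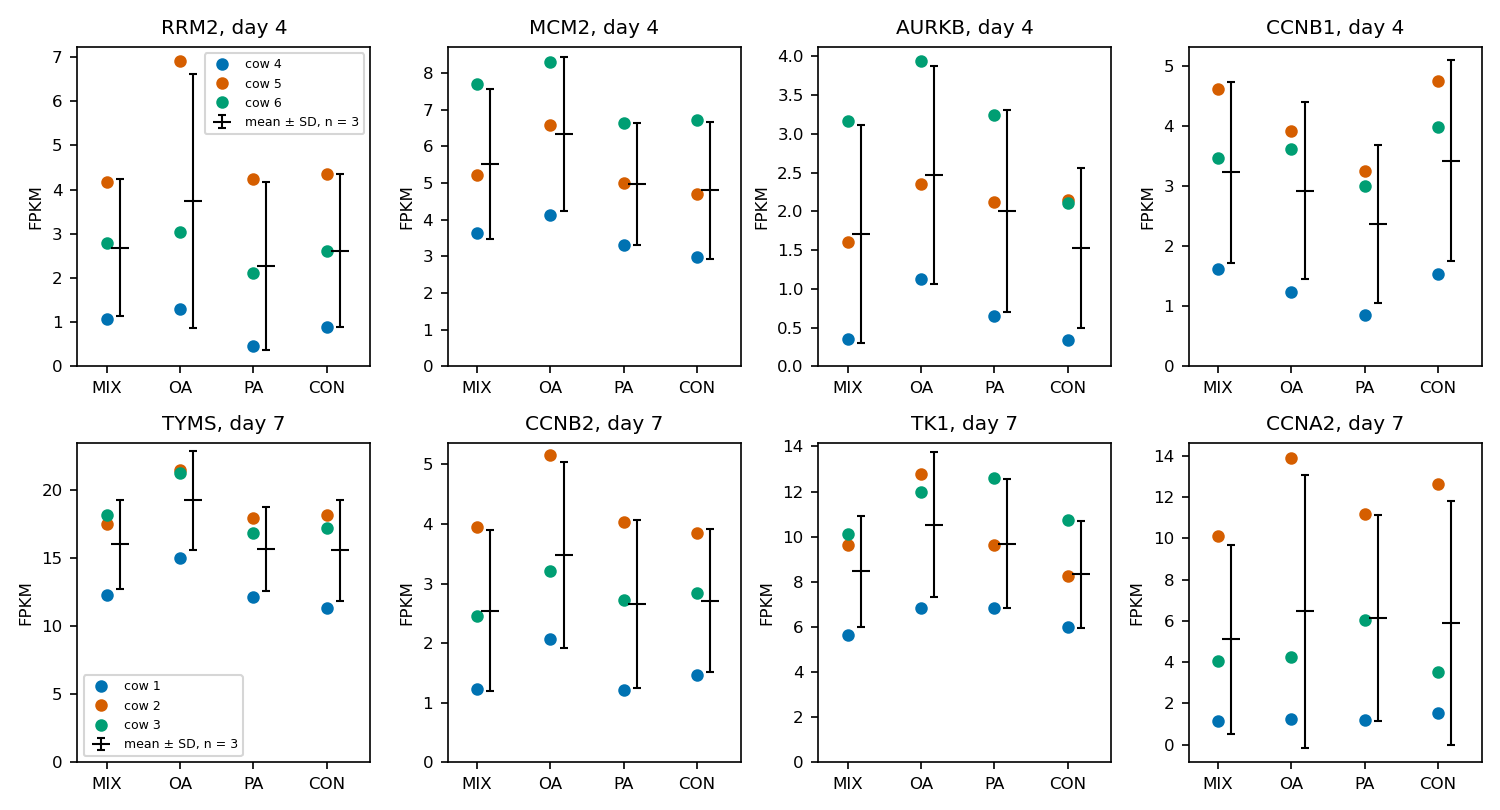
FPKM of 4 members at day 4 (top: RRM2, MCM2, AURKB, CCNB1) and 4 at day 7 (bottom: TYMS, CCNB2, TK1, CCNA2) in MIX, OA, PA and CON cultures, 1 coloured point per cow, with the mean and SD of the 3 cows in black. The cows keep their order across groups for most panels, and OA is the highest culture in every cow for RRM2, MCM2, AURKB, TYMS and CCNB2.

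Among the cyclins, the mitotic cyclin CCNB2 differed most with OA at day 7. It had 1.24, 3.95 and 2.46 FPKM in MIX cultures, 2.07, 5.16 and 3.21 in OA cultures, 1.21, 4.03 and 2.73 in PA cultures and 1.46, 3.84 and 2.84 in CON cultures then. All 3 cows were highest with OA, and the differences were 0.27 ± 0.08 (adjusted p = 0.434) from CON and 0.31 ± 0.08 (adjusted p = 0.306) from PA. At day 4, CCNB2 had 0.478, 0.738 and 2.43 FPKM in MIX cultures, 0.624, 1.59 and 2.09 in OA cultures, 0.361, 0.879 and 1.67 in PA cultures and 0.453, 0.998 and 1.75 in CON cultures. OA was above CON in every cow there too, at 0.45 ± 0.32 (adjusted p = 0.992), on as few as 9 reads a library.

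CCNB1, its close relative that brings CDK1 into mitosis, did not follow it. At day 4, CCNB1 had 1.62, 4.61 and 3.46 FPKM in MIX cultures, 1.23, 3.92 and 3.62 in OA cultures, 0.859, 3.25 and 2.99 in PA cultures and 1.54, 4.75 and 3.99 in CON cultures. PA was the lowest in every cow, at -0.56 ± 0.20 (adjusted p = 0.9998), and OA was below CON in every cow, at -0.24 ± 0.20 (adjusted p = 0.992). At day 7, CCNB1 had 2.61, 9.82 and 7.98 FPKM in MIX cultures, 2.85, 13.3 and 5.84 in OA cultures, 2.30, 9.54 and 8.61 in PA cultures and 1.799, 12.2 and 6.77 in CON cultures, and OA against CON gave 0.13 ± 0.17 (adjusted p = 0.858). CCNE1, the cyclin of S phase entry, had 4.45, 5.12 and 5.25 FPKM in MIX cultures, 4.91, 5.82 and 5.78 in OA cultures, 4.31, 5.44 and 4.29 in PA cultures and 3.23, 4.67 and 4.87 in CON cultures at day 4. Each cow was highest with OA, and all OA values lay above all CON values, with a difference of 0.37 ± 0.15 (adjusted p = 0.86). At day 7, CCNE1 had 5.13, 4.39 and 6.43 FPKM in MIX cultures, 4.58, 5.09 and 7.37 in OA cultures, 4.66, 4.14 and 7.15 in PA cultures and 4.56, 4.15 and 6.66 in CON cultures, at 0.13 ± 0.08 (adjusted p = 0.643).

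CDK1, the kinase of mitosis, had 1.17, 1.76 and 0.967 FPKM in MIX cultures, 1.55, 2.19 and 0.683 in OA cultures, 1.23, 1.69 and 1.13 in PA cultures and 1.57, 1.64 and 0.943 in CON cultures at day 4. No group was the highest in more than 1 cow, and OA against CON gave 0.03 ± 0.25 (adjusted p = 0.999). At day 7, CDK1 had 1.64, 3.25 and 2.95 FPKM in MIX cultures, 1.56, 3.63 and 3.45 in OA cultures, 1.51, 3.28 and 2.56 in PA cultures and 1.67, 3.67 and 3.07 in CON cultures. PA was below CON in every cow, at -0.14 ± 0.08 (adjusted p = 0.998). CCNA2, the cyclin of S and G2 phase, spread most between animals of any member, as its cow means at day 7 differed 9.32-fold. CDK2, the kinase partner of cyclins E and A, differed 1.09-fold between cow means at day 4. It lay above CON with OA in every cow of day 7, at 0.24 ± 0.08 (adjusted p = 0.483), and gave -0.07 ± 0.11 (adjusted p = 0.993) at day 4. CCNE2, the second cyclin E, was the 1 member below CON with OA in every cow of day 7, at -0.13 ± 0.12 (adjusted p = 0.789). In this role, 5 of 7 genes lay above 0 in OA against CON at day 4 and 6 of 7 at day 7.

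The mitotic kinases and checkpoint genes had the highest role median in OA against CON at day 4, 0.29, with 7 of 8 above 0. The 3 transcription factors came next, at 0.24. AURKB, the kinase of the chromosomal passenger complex, had 0.353, 1.60 and 3.16 FPKM in MIX cultures, 1.12, 2.35 and 3.94 in OA cultures, 0.652, 2.12 and 3.24 in PA cultures and 0.334, 2.14 and 2.11 in CON cultures at day 4. The OA culture led in every cow, and the difference from CON, 0.77 ± 0.26 (adjusted p = 0.618), was the largest there among members at 1 FPKM or more on average with 1 direction in every cow. CDC20, an activator of the anaphase-promoting complex, had 0.313, 1.38 and 2.55 FPKM in MIX cultures, 0.562, 1.64 and 2.53 in OA cultures, 0.473, 1.85 and 2.01 in PA cultures and 0.222, 1.43 and 1.42 in CON cultures at day 4. CON was the lowest in cows 4 and 6, and OA and PA both lay above CON in every cow, at 0.66 ± 0.27 (adjusted p = 0.866) and 0.53 ± 0.27 (adjusted p = 0.9998). At day 7, CDC20 had 1.51, 6.59 and 4.15 FPKM in MIX cultures, 1.68, 8.36 and 4.60 in OA cultures, 1.41, 6.19 and 5.77 in PA cultures and 1.69, 7.74 and 3.72 in CON cultures, and OA against CON gave 0.11 ± 0.13 (adjusted p = 0.842).

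PLK1, which acts at entry into mitosis and at its exit, had 4.60, 4.94 and 4.37 FPKM in MIX cultures, 4.65, 6.13 and 4.91 in OA cultures, 3.78, 4.58 and 4.54 in PA cultures and 4.07, 4.09 and 4.01 in CON cultures at day 4. All OA values lay above all CON and all PA values, and the differences were 0.35 ± 0.13 (adjusted p = 0.804) and 0.28 ± 0.13 (adjusted p = 0.707). Of the 44 members, 2 had every OA library above every CON library at day 4, PLK1 and CCNE1, where 0.648% of all genes did. PLK1 was the 1 member with this order in OA against PA, where 0.604% of all genes had it. At day 7, PLK1 had 3.03, 5.66 and 6.15 FPKM in MIX cultures, 2.92, 8.29 and 5.63 in OA cultures, 3.55, 7.22 and 5.28 in PA cultures and 3.68, 7.26 and 4.89 in CON cultures, with 0.03 ± 0.13 (adjusted p = 0.967) for OA against CON. No member separated in this way at day 7, where 1.22% of genes did in OA against CON, 1.27% in OA against PA and 0.904% in PA against CON.

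AURKA, the spindle pole kinase, had 1.05, 1.14 and 2.47 FPKM in MIX cultures, 1.06, 1.72 and 1.91 in OA cultures, 0.831, 1.36 and 1.40 in PA cultures and 1.02, 1.82 and 2.42 in CON cultures at day 4. At day 7, AURKA had 1.15, 3.73 and 2.82 FPKM in MIX cultures, 1.33, 4.47 and 3.25 in OA cultures, 1.10, 3.61 and 3.74 in PA cultures and 0.876, 3.33 and 3.14 in CON cultures. PA lay below CON in every cow of day 4 and above CON in every cow of day 7, at -0.52 ± 0.26 (adjusted p = 0.9998) and 0.15 ± 0.10 (adjusted p = 0.998). BIRC5, also known as survivin and a subunit of the passenger complex, had 3.11, 4.34 and 3.62 FPKM in MIX cultures, 2.90, 4.33 and 4.66 in OA cultures, 2.16, 3.74 and 3.61 in PA cultures and 2.38, 4.37 and 3.72 in CON cultures at day 4. PA was the lowest in every cow, at -0.14 ± 0.18 (adjusted p = 0.9998) against CON. At day 7, BIRC5 had 4.18, 10.2 and 11.2 FPKM in MIX cultures, 4.15, 12.9 and 11.7 in OA cultures, 2.77, 11.5 and 14.02 in PA cultures and 2.99, 10.9 and 10.3 in CON cultures, and OA was above CON in every cow, at 0.26 ± 0.13 (adjusted p = 0.588). BUB1B, of the spindle checkpoint, had 0.772, 2.75 and 1.96 FPKM in MIX cultures, 1.07, 3.42 and 2.19 in OA cultures, 0.735, 2.34 and 2.06 in PA cultures and 0.606, 2.66 and 1.92 in CON cultures at day 7. Every cow was highest with OA, at 0.26 ± 0.09 (adjusted p = 0.484) from CON and 0.24 ± 0.09 (adjusted p = 0.38) from PA.

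BUB1B at day 4 ranged over 0.315 to 1.44 FPKM, with OA against CON at 0.58 ± 0.29 (adjusted p = 0.96). Its checkpoint partner BUB1 had as few as 5 reads a library at day 4 and ranged over 0.431 to 3.02 FPKM at day 7. CDCA8, the passenger complex subunit borealin, was at 0.27 ± 0.28 (adjusted p = 0.992) at day 4 and -0.06 ± 0.14 (adjusted p = 0.928) at day 7. AURKB at day 7 ranged over 1.89 to 4.40 FPKM, and OA against CON gave 0.04 ± 0.10 (adjusted p = 0.936), so its day 4 position was not seen there.

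MKI67, whose protein Ki-67 is a common marker of cycling cells, gave no steady order. It had 0.404, 1.47 and 1.43 FPKM in MIX cultures, 0.499, 2.12 and 1.33 in OA cultures, 0.354, 1.38 and 1.23 in PA cultures and 0.298, 1.90 and 1.55 in CON cultures at day 4. At day 7 it had 1.19, 3.74 and 2.36 FPKM in MIX cultures, 1.06, 5.24 and 1.87 in OA cultures, 0.937, 3.46 and 2.56 in PA cultures and 0.799, 4.79 and 2.14 in CON cultures. OA was the highest in cows 4, 5 and 2 only, and OA against CON gave 0.14 ± 0.15 (adjusted p = 0.993) at day 4 and 0.06 ± 0.15 (adjusted p = 0.932) at day 7. TOP2A, the topoisomerase that untangles chromosomes, had 0.919, 2.06 and 0.728 FPKM in MIX cultures, 1.07, 2.49 and 1.07 in OA cultures, 0.663, 1.97 and 1.31 in PA cultures and 0.784, 2.07 and 1.13 in CON cultures at day 4. At day 7, TOP2A had 1.42, 2.94 and 3.93 FPKM in MIX cultures, 1.67, 5.55 and 3.85 in OA cultures, 1.40, 2.99 and 4.01 in PA cultures and 1.44, 4.18 and 3.93 in CON cultures. OA was the highest in cows 4, 5, 1 and 2, with 0.21 ± 0.19 (adjusted p = 0.992) and 0.15 ± 0.14 (adjusted p = 0.786) for OA against CON at day 4 and day 7.

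KIF20A, a kinesin of late mitosis, had 0.327, 1.49 and 1.31 FPKM in MIX cultures, 0.541, 2.27 and 1.57 in OA cultures, 0.309, 1.09 and 1.28 in PA cultures and 0.387, 1.76 and 1.42 in CON cultures at day 4. Every cow had its highest value with OA and its lowest with PA, and OA against PA gave 0.71 ± 0.24 (adjusted p = 0.378). It overlaps CDC23 on the opposite strand, and the counting's use of strand is not given in the sources used here. KIF11, the kinesin that separates the spindle poles, had 1.08, 2.24 and 2.69 FPKM in MIX cultures, 1.28, 3.53 and 2.07 in OA cultures, 1.26, 2.74 and 2.51 in PA cultures and 1.24, 2.67 and 2.24 in CON cultures at day 7, and PA against CON gave 0.05 ± 0.12 (adjusted p = 0.998). NUSAP1, which binds spindle microtubules, had 0.741, 1.65 and 1.19 FPKM in MIX cultures, 1.36, 1.85 and 1.63 in OA cultures, 0.695, 1.23 and 1.62 in PA cultures and 0.986, 1.70 and 1.41 in CON cultures at day 7. The highest value was that of OA in every cow, though nearly level with PA in cow 3, and OA against PA gave 0.28 ± 0.12 (adjusted p = 0.415). NUSAP1 overlaps OIP5 on the opposite strand, which averaged 1.44 FPKM at day 7. TPX2, which activates AURKA on the spindle, was the highest of this role at 7.44 to 11.9 FPKM at day 7, with OA against CON at 0.06 ± 0.05 (adjusted p = 0.763). CENPF, a kinetochore protein, ranged over 0.0753 to 0.847 FPKM at day 4 and 0.196 to 2.04 FPKM at day 7. In this role, 6 of 7 genes lay above 0 in OA against CON at day 4 and 7 of 7 at day 7, with medians of 0.12 and 0.08.

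In oleic acid against the basal medium, the members' small differences leaned to OA in every cow, though none passed the test. Of the 44 members, 18 were higher in OA than in CON in all 3 cows at day 4, and 20 of 42 at day 7, against 14.9% and 17% of all genes. In all 3 cows, 2 members were lower at day 4, TYMS and CCNB1, and 1 at day 7, CCNE2, against 11.7% and 14.5% of all genes. At an unadjusted p under 0.05 with the block, 7 members were higher at day 4 and 8 at day 7, against 2.87% and 5.53% of all genes, and none was lower. The median over members within a cow was 0.14, 0.11 and 0.05 in cows 4, 5 and 6 and 0.09, 0.16 and 0.13 in cows 1, 2 and 3, in log2(FPKM + 1). Other measures differed between OA and CON as well. The summed level of 7 smooth muscle markers was 509, 1201 and 3102 FPKM in OA and 396, 1026 and 2684 FPKM in CON cultures of cows 4, 5 and 6, with 6 of the 7 markers at 1 FPKM or more. With the block, 1 of the 7 passed the threshold in OA against CON at day 4, by edgeR, and 5 had an unadjusted p under 0.05, all higher. At day 7 that sum was 2378, 5921 and 6532 FPKM in OA and 2172, 6305 and 6692 FPKM in CON cultures, higher in cow 1 only. The 8 adipocyte markers summed to 23.7, 33.1 and 62.1 FPKM in OA and 19.2, 30.3 and 53.04 FPKM in CON cultures at day 4. At day 7 they summed to 4.94, 4.73 and 2.82 FPKM in OA and 5.67, 6.27 and 3.23 FPKM in CON cultures. The 10 pre-adipocyte and fibroblast markers summed to 7887, 21555 and 18107 FPKM in OA and 6807, 19652 and 17538 FPKM in CON cultures at day 4, with 9 of 10 above 0. At day 7 they summed to 16051, 23972 and 18978 FPKM in OA and 12442, 25734 and 19415 FPKM in CON cultures, higher in cow 1 only. The 7 macrophage and leukocyte markers were low but summed higher with OA in all 6 cows. With MIX their sum was above CON in all 6 cows too, and with PA in every cow but cow 3. At day 4 these sums were 8.20, 11.1 and 6.31 FPKM in OA and 7.87, 7.58 and 5.20 FPKM in CON cultures. At day 7 they were 6.15, 2.92 and 4.88 FPKM in OA and 5.15, 2.23 and 4.2024 FPKM in CON cultures. The part of these other genes, and of the different depths of the libraries, in the members' differences was not tested.

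**Figure D3:**
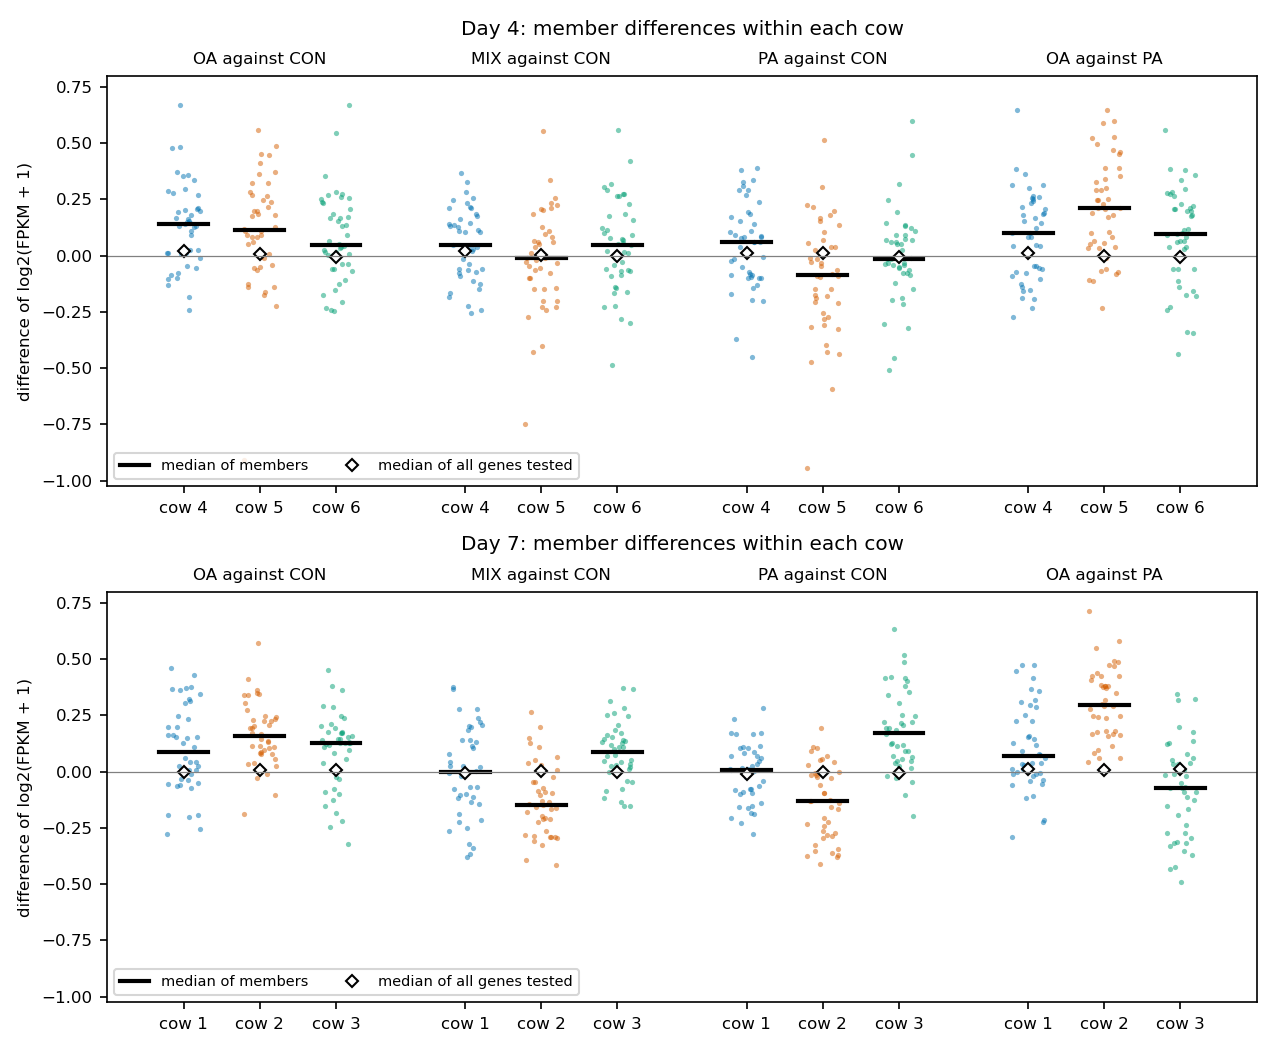
Difference of log2(FPKM + 1) between 2 cultures of the same cow, 1 point per member tested (44 at day 4, top, and 42 at day 7, bottom), for OA, MIX and PA against CON and for OA against PA. Black bars are medians over members and white diamonds medians over all genes tested. The OA against CON bars lie above 0 in all 6 cows, from 0.05 in cow 6 to 0.16 in cow 2, whereas PA against CON and MIX against CON change sign between cows.

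Oleic acid against palmitic acid, at the same dose and time, gave a like picture at day 4 and an uneven one at day 7. At day 4, 37 of 44 members lay above 0 with a median of 0.21, and cow medians were 0.10, 0.21 and 0.10. In all 3 cows, 18 members were higher, against 13.1% of genes, and 11 were higher at an unadjusted p under 0.05, against 3.65%. At day 7, 38 of 42 lay above 0, but cow medians were 0.07, 0.30 and -0.07. In cow 2 all 42 tested members were higher with OA, in cow 1 it was 28 and in cow 3 it was 15. Cow 2 is also the animal whose OA and PA libraries differed most in depth, at 22995878 and 14118798 reads, whose part in this was not tested. Without cow 2, 18 of 42 lay above 0 and the median over the members was -0.01. In all 3 cows, 9 members were higher, against 16.5% of genes, and 7 were higher at an unadjusted p under 0.05, against 7.67%. Over all genes of this comparison at day 7, 6797 of 12615 lay above 0.

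MIX against OA compares the mixture with oleic acid alone. At day 4, 13 of 44 members were lower with MIX in all 3 cows, against 13.4% of genes, and 4 were lower at an unadjusted p under 0.05, against 1.58%. At day 7, 18 of 42 were lower in all 3 cows, against 15.4%, and 10 were lower at an unadjusted p under 0.05, against 6.64%. Cow medians were -0.08, -0.16 and -0.06 at day 4 and -0.11, -0.29 and -0.06 at day 7. The 10 members at day 7 included MCM2 at -0.23 ± 0.08 (adjusted p = 0.392), TYMS at -0.25 ± 0.05 (adjusted p = 0.299) and TK1 at -0.28 ± 0.09 (adjusted p = 0.374). At day 4, RRM2 was at -0.40 ± 0.18 (adjusted p = 0.9997) and MCM6 at -0.25 ± 0.09 (adjusted p = 0.9997). Leaving out a cow or a library in turn put 9 to 15 of 44 members above 0 at day 4. At day 7 it put 16 of 42 above 0 without cow 2 and 2 without cow 3. MIX held less oleic acid than OA at the same total dose, so less oleic acid and added palmitic acid cannot be told apart.

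Palmitic acid and the mixture against the basal medium gave no direction common to the cow medians. In PA against CON, 18 of 44 members lay above 0 at day 4 and 28 of 42 at day 7, with medians of -0.05 and 0.02. Cow medians ran from -0.09 in cow 5 to 0.06 in cow 4 at day 4, and from -0.13 in cow 2 to 0.17 in cow 3 at day 7. In all 3 cows of day 4, 10 members were lower in PA and 4 higher, against 10.6% and 12.5% of genes. At an unadjusted p under 0.05, 2 members were lower in PA at day 4, MCM4 and CCNB1, where 1.69% of genes were. Without cow 5 the day 4 median of PA against CON was 0.03. In MIX against CON, 25 of 44 lay above 0 at day 4 and 19 of 42 at day 7, with medians of 0.04 and -0.02. In all 3 cows of day 4, 6 members were higher in MIX and 1 lower, against 13.3% and 9.70% of genes. Without cow 5 the day 4 median was 0.08, and without the CON library of cow 4, in the fit with the block, it was -0.0028. The 1 member at an unadjusted p under 0.05, UHRF1, was higher, at day 7, where 1.69% of genes were. In MIX against PA, 27 of 44 lay above 0 at day 4 and 15 of 42 at day 7. There 1 member, CCNB1, was higher at an unadjusted p under 0.05 at day 4, where 1.63% of genes were. In all 3 cows of day 4, 10 members were higher with MIX than with PA and 4 lower, against 10.1% and 10.3% of genes.

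Whether a fatty acid's difference changed between the days was tested on 12132 genes, among them 39 members. No gene passed in PA, OA or MIX against CON or in OA against PA, so the background was 0% in all 4. The median change of the members from day 4 to day 7 was 0.02 for OA against CON, where 23 of 39 lay above 0, and -0.07 for MIX against CON, where 14 did. At an unadjusted p under 0.05, 3 members were higher and 0 lower in PA against CON, where 1.67% of genes were higher. In OA against CON, 2 were higher and 1 lower, against 2.56% and 2.93% of genes. The days also differ in cows and in when the acids were given, which cannot be told apart from time.

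Most of the members' spread lay between cows. The animal and anything else that its 4 cultures shared cannot be told apart. The 3 cows took a median of 83.3% of a member's sum of squares of log2(FPKM + 1) at day 4, and the 4 groups took 8.09%. At day 7 the shares were 88.3% and 3.67%. Over all genes tested the cow shares were 86.6% and 78.0%, and the group shares 3.32% and 6.55%. Cow 4 had the lowest mean of 34 of 44 members at day 4. At day 7, cow 1 was lowest for 38 members and cow 2 highest for 29. The ratio of the highest to the lowest cow mean had a median of 1.95 for licensing genes and of 2.57 for mitotic kinase and checkpoint genes at day 4. At day 7 these medians were 1.58 and 3.37. MCM7 differed 1.15-fold and CCNA2 9.32-fold between cows at day 7.

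**Figure D4:**
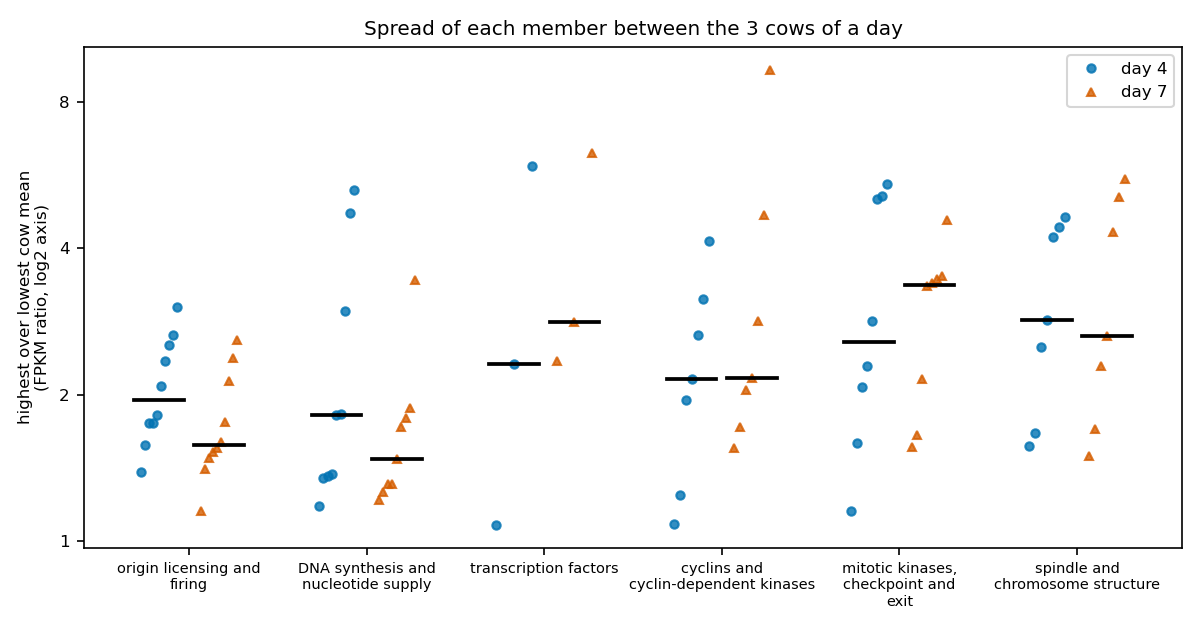
Ratio of the highest to the lowest cow mean (FPKM, log2 axis) for each member, by role, at day 4 (circles) and day 7 (triangles), with the median of each set as a bar. At day 7 the ratio is at most 2.59 for the licensing genes and reaches 9.32 for CCNA2 among the cyclins.

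Within an animal, OA was the culture with the highest level for 20, 24 and 17 of the 44 members in cows 4, 5 and 6, more than any other group in each. In cows 1 and 2 it was the highest for 15 and 38 members. In cow 3, PA was the highest for 22 members and OA for 14. The culture that was most often the lowest was CON in cows 4, 1 and 3, for 15, 15 and 21 members. It was PA in cows 5 and 6, for 22 and 20 members, where CON was the lowest for 10 and 9. In cow 2 it was MIX, for 20 members, with PA the lowest for 16 and CON for 7. Over the 12 libraries of a day, the median correlation between 2 members was 0.45 at day 4 and 0.77 at day 7, as a description over 946 pairs that share cows and libraries. After the mean of each cow was taken off, it was 0.15 at day 4 and 0.37 at day 7.

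Other genes of the pathway were read from lists that do not share a gene with the members. Of 56 other mitosis genes, 39 lay above 0 in OA against CON at day 4 and 40 of 52 tested at day 7, with medians of 0.08 and 0.10. None passed. The 2 with the smallest p at day 4 were CKS1B, which binds cyclin-dependent kinases, at 0.62 ± 0.17 (adjusted p = 0.292), and PRC1, of the central spindle, at 0.38 ± 0.15 (adjusted p = 0.856). CKS1B was also above CON with PA in every cow of day 4, at 0.53 ± 0.17 (adjusted p = 0.9998). At day 7, UBE2S, which works with the anaphase-promoting complex, was at 0.17 ± 0.05 (adjusted p = 0.434) with OA. Of 44 other replication genes, 23 lay above 0 in OA against CON at day 4 and 24 of 39 at day 7, with medians of 0.01 and 0.04. In all 3 cows, 8 of the 44 were higher with OA at day 4 and 12 of 39 at day 7, against the 14.9% and 17% of all genes. Among them, RPA2, a subunit of the protein that coats single-stranded DNA, was at 0.23 ± 0.07 (adjusted p = 0.434) at day 7.

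The G1 regulators and brakes of the cycle were read from a further list. CDKN1A, the p21 inhibitor of cyclin-dependent kinases, ranged over 161 to 372 FPKM at day 4 and 151 to 315 FPKM at day 7. CDKN1B, the p27 inhibitor, averaged 11.1 FPKM at day 4 and 8.74 at day 7. In OA against PA at day 4, 4 of these genes had the smallest p of their list and 1 direction in every cow, with none past the threshold. CDKN1A was at -0.24 ± 0.07 (adjusted p = 0.204), CDKN1B at -0.31 ± 0.10 (adjusted p = 0.319) and CDKN2D, an inhibitor of CDK4 and CDK6, at -0.60 ± 0.18 (adjusted p = 0.299). CCND1, the cyclin D1 partner of those kinases, was at 0.38 ± 0.11 (adjusted p = 0.248). Against CON at day 4, CDKN1A was at -0.07 ± 0.07 with OA and 0.18 ± 0.07 with PA. CDKN1B was at -0.13 ± 0.10 with OA and 0.18 ± 0.10 with PA, and CCND1 at 0.10 ± 0.11 and -0.28 ± 0.11. CDKN2D was at -0.40 ± 0.19 with OA. In OA against PA at day 7, CDKN1A was at 0.02 ± 0.08 (adjusted p = 0.94), CDKN1B at -0.03 ± 0.06 (adjusted p = 0.881) and CCND1 at 0.16 ± 0.15 (adjusted p = 0.718). Over the list, 20 of 31 lay above 0 in OA against PA at day 4, with a median of 0.05. In OA against CON, 19 of 31 lay above 0 at day 4 and 18 of 28 at day 7, with medians of 0.04 and 0.03. Of 26 p53 target and DNA damage genes, 15 lay above 0 at day 4 and 13 of 25 at day 7, with medians of 0.02 and 0.00, and none passed. The 2 inhibitors CDKN2A and CDKN2B, and CCNF and PTTG1 of the mitosis list, were not analysed here.

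The authors' deposited table of day 4 comparisons holds values for all 44 members. In that table, over 6 comparisons, no member's unadjusted p was under 0.05. The lowest in the authors' deposited table was 0.183, for CDC6 in CON against PA. How many of all genes were under 0.05 there was not computed here, so this is no result about the members. For RRM2 in OA against PA the authors' log2 difference was 0.723. DESeq2 gave 0.723 here without the block and 0.796 with it.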

How the data were processed

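RNA was sequenced from cultured bovine pre-adipocytes in 24 libraries, 1 per cow, group and day, with 3 cows a day. Per the file headers and values, the authors deposited raw read counts and FPKM per gene for day 4, with log2 fold changes and p-values of their own comparisons, and FPKM for day 7. The submitters' processing notes name FastQC 0.11, StringTie 1.3.3b and featureCounts 1.5.0-p3. Aligner, genome build and use of strand were not given in the sources used here. Day 7 FPKM, multiplied by gene length and divided by the value of 1 read, gave whole reads for 100% of values within 0.01, and edgeR on these reads was an alternative.

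Day 4 counts were tested with edgeR 4.0.16 (quasi-likelihood, filterByExpr, TMM; 13580 genes). Day 7 values were tested with limma 3.58.1 on log2(FPKM + 1) for genes at 1 FPKM or more in at least 3 libraries (12615 genes). The pseudocount shrinks differences of low genes, so sizes are not comparable between the days. P-values were adjusted by Benjamini-Hochberg over all genes, with a threshold of 0.05. The main fits had no block, and cow was the block in an alternative fit. Cow numbers pair the libraries, as those of 1 number come from 1 animal. Same-cow libraries deviated together from their group means (r of 0.757 to 0.912 at day 4 and 0.772 to 0.864 at day 7). A change between days was fitted with limma on 12132 genes. R 4.3.3, DESeq2 1.42.0, Python 3.11.15, pandas 2.3.3 and matplotlib 3.10.9 were used, and the fits were tested on simulated data. Alternatives were another filter, scaling, tool and pseudocount, and each library or cow left out.

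The members and lists were chosen with earlier results of these data known. Values per library are given for members past the threshold, for up to 5 members with the largest difference in each of 4 comparisons at 1 FPKM or more with 1 direction in all cows, and for 14 set members. Floors cover counting error only. The ± values are standard errors taken from each difference and its test statistic. They also hold the spread between cultures that the fit leaves. Sequences of the members were not used here.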

Additional observations from a re-analysis of the deposited data

Results flagged for a closer look

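AURKA in PA against CON, TYMS in OA against CON and MCM2 in MIX against CON lay on one side of 0 in every cow of one day and on the other side in every cow of the other day. By limma with the cow block, none of these changes between days passed. For AURKA the change from day 4 to day 7 was 0.4515 on the log2(FPKM + 1) scale, with differences of 0.15 at day 7 and -0.30 at day 4 (adjusted p = 0.999). For TYMS it was 0.3811, with 0.30 at day 7 and -0.08 at day 4 (adjusted p = 0.627). For MCM2 it was -0.2399, with -0.07 at day 7 and 0.17 at day 4 (adjusted p = 0.979). The days differ in cows and in treatment schedule, which cannot be told apart from time.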

How the results depend on the processing

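Leaving out 1 cow (from all groups, as a whole replicate) or 1 library is described here with the replicate block for cow unless said otherwise. The direction of the median over members was kept in OA against CON at both days, in OA against PA at day 4 and in MIX against OA at both days under every alternative tried. In OA against CON at day 4, the median log2 difference of 0.17 ranged over 0.132 to 0.224, the highest without the CON library of cow 5, and 30 to 36 of 44 members lay above 0. At day 7 it ranged over 0.0428 to 0.197. It was 0.0825 without cow 2, with or without the block. Dropping that cow's OA library gave 0.0428 and its CON library 0.166. For cow 3 these were 0.197 (OA) and 0.0746 (CON). The fit with no block reached 0.150 without cow 1. There 28 to 39 of 42 members lay above 0. In OA against PA at day 7, 18 of 42 members lay above 0 without cow 2 (38 without cow 3) and 24 without its OA library, and the median ranged over -0.0097 to 0.205. In OA against PA at day 4 it ranged over 0.147 to 0.252, with 31 to 36 of 44 members above 0. In MIX against OA at day 4 it ranged over -0.187, without the OA library of cow 6, to -0.106. Its day 7 range was -0.203 to -0.0626, and the members above 0 numbered 16 without cow 2, 15 without its OA library and 10 without its MIX library, but 2 without cow 3, 3 without its OA library and 2 without its MIX library. In PA against CON at day 4 the median changed sign, to 0.0348 without cow 5 and 0.0436 without its PA library, and the fit with no block gave 0.0344 without cow 5 and -0.0876 without cow 4. In MIX against CON at day 4 it was 0.0880 without cow 5 and -0.0028 without the CON library of cow 4, and with no block it was 0.0791 without cow 5 and 0.0229 without cow 6. In MIX against PA it was 0.125 at day 4 without the PA library of cow 4, 0.0095 without that of cow 5 and 0.123 without the MIX library of cow 5. At day 7 it was -0.0995 without the PA library of cow 2 and 0.0467 without that of cow 3.

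With a mean of 50 counts required, 29 members were tested at day 4, so fewer could lie above 0: 22 did in OA against CON and 23 in OA against PA, and the median of MIX against PA was 0.0097. Limma on log2(FPKM + 1) at day 4 gave medians of 0.129 in OA against PA and 0.0176 in MIX against PA. In OA against PA at day 4, 1 member, RRM2, passed with no filter and the block (log2 difference 0.77, adjusted p = 0.00152, edgeR), and also 1 without cow 6, 1 without its OA library and 1 without its MIX library. The cause of these changes was not tested. No other comparison had a member past the threshold under any alternative, and the replicate block changed no other call. Of the values recomputed for single members, 967 kept their direction and side of the threshold and 4 passed it. Depth limits FOXM1, BUB1, PRIM1, CDC6, CCNB2 and CDC20 most, each with a library below 10 reads at day 4.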
